A study of Caenorhabditis elegans with 2 samples.

Results

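The genes described here are 32 protein-coding genes of the intestine of Caenorhabditis elegans, taken as a list of gene names and not by any measured value, of 19973 protein-coding genes in the annotation. The question asked of them was whether the tagged transcription factor SPR-3 was detected at genes of this tissue. They encode 6 yolk proteins, 4 endoderm transcription factors, 6 proteases, an esterase and a phosphatase, 5 metal-handling proteins, 3 cytoskeletal proteins of the cell's apical side, 2 efflux pumps and 4 antimicrobial proteins. The study mapped SPR-3 binding by chromatin immunoprecipitation and sequencing (ChIP-seq) with an anti-GFP antibody. There was 1 group of 2 biological replicates and no second condition. The worms were strain OP703, with the allele unc-119(tm4063) and the transgene wgIs703, which holds spr-3::TY1::EGFP::3xFLAG with a rescuing unc-119(+). They were mixed-sex L4 larvae of 49 hours, synchronised by L1 starvation. The fusion protein was thus read in 1 transgenic line that also carries its own unc-119 rescue, and in chromatin of whole animals, in which the intestine is only some of the cells. A site held in intestine alone cannot be told apart here from a weaker site held in many tissues.

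SPR-3 is a zinc-finger protein, first known from genetic suppression of a presenilin defect, and is held to repress transcription. The worm intestine arises from a single embryonic founder cell. GATA factors first set its fate (END-1 and END-3) and then keep its genes on (ELT-2 and ELT-7), and they read short words with GATA at their core. The differentiated cell digests food, stores fat, makes yolk for the germ line and faces ingested microbes and metals.

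The authors deposited 3 lists of 30000 candidate intervals, for replicate 1, replicate 2 and the pool of both, and an irreproducible discovery rate (IDR) thresholded list of 945 summits. By their labels the 3 candidate lists hold peaks and background together, as input for IDR. A candidate outside the thresholded list may therefore be background and is not a called site. The thresholded summits were the 945 pooled candidates of highest signal, from 138.0 to 2033.2, and the pooled candidates reached down to a signal of 43.4. Signal is a score of each interval from the authors' peak caller, for ChIP against control, and is used here to rank within a list only. Each gene was scored by the highest signal of a summit in its promoter window and in its gene body. The window ran over the 1000 bp before the annotated 5′ end and the first 200 bp after it. Those first 200 bp belong to the body as well, so a summit there counts in both places. The scores of a gene in different lists may come from different sites. A score of 0 says that no interval of that list had its summit there. Read counts are not part of these lists, and library depth is therefore unknown.

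The stretches of sequence below are the places on which the results turn, from the RefSeq genome of build WBcel235 (ce11). The first is the 5′ end of vit-2 on the plus strand (chrX:5101043-5101153), under the highest promoter candidate of the 32 genes. The next are the promoter candidates of act-5 on the minus strand (chrIII:13606232-13606432), ges-1 on the minus strand (chrV:1432555-1432755) and elt-7 on the plus strand (chrV:4770194-4770394). The fifth, on the plus strand (chrX:10480990-10481239), is the 250 bp before the 5′ end of elt-2, which held no summit of any list, although a replicate 1 candidate with its summit 261 bp upstream reached into it. Capitals mark GATA words on either strand, which are the word TGATAA, the word AGATAA and the word TGATAG.
vit-2 5′ end: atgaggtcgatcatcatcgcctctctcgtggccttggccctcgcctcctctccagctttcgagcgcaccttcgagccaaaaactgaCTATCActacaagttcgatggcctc
act-5 promoter candidate: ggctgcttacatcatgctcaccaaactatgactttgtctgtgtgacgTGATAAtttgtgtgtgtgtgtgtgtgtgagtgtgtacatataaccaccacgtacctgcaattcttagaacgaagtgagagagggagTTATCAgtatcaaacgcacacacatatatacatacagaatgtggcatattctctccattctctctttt
ges-1 promoter candidate: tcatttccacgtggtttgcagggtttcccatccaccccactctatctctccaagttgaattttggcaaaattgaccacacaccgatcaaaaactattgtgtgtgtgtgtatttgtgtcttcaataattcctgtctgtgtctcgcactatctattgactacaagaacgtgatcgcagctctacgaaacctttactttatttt
elt-7 promoter candidate: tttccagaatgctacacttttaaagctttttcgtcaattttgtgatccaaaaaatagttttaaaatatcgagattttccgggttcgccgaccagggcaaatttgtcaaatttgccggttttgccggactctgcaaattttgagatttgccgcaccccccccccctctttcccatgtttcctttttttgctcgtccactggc
elt-2 proximal promoter: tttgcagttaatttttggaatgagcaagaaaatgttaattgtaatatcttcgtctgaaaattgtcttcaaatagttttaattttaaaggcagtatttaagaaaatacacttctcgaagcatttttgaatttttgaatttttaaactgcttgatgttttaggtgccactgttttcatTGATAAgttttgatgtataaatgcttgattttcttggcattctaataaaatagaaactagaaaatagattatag
The next pair of stretches lies under the thresholded summits in the gene bodies of act-5 on its own, minus strand (chrIII:13605036-13605236) and of pgp-1 on the plus strand, opposite to the gene (chrIV:12594702-12594902). In the pgp-1 stretch the capitals mark a tRNA gene in place of GATA words.
act-5 gene body peak: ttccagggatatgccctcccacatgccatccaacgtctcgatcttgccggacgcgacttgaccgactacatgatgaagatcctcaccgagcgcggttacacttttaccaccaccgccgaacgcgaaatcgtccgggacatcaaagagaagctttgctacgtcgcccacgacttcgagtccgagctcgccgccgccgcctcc
pgp-1 gene body peak: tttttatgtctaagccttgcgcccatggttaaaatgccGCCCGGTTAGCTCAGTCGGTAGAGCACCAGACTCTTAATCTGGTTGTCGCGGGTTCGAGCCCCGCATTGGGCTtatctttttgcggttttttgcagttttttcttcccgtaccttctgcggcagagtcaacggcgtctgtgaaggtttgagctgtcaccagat

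None of the 32 intestine genes had a thresholded peak in its promoter window. Among the 19941 other protein-coding genes 566 had one, or 2.84%. With so low a share among the others, an empty list of 32 cannot be read as a difference. Among the 945 highest candidates of replicate 2 alone vit-2 was the 1 gene with a promoter summit, against 2.67% of the others, and among those of replicate 1 there was none. The nearest thresholded summit lay at a median of 50.2 kb from the 5′ end in the intestine genes and of 46.5 kb in the others. It lay within 5 kb in 3 of the 32, which were act-5 at 930 bp, pgp-1 at 4367 bp and cpr-1 at 4738 bp. That share of 9.38% stood beside 9.9% of the others.

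Below the threshold, the promoters of intestine genes held pooled candidates about as often as other promoters did. A pooled candidate was present in 10 of 32 windows (31.2%), against 32.7% of the other genes. The replicate 1 list gave 12 of 32 (37.5%) against 31.9%, and the replicate 2 list gave 11 of 32 (34.4%) against 33.2%. Both replicates had a candidate in 6 windows (18.8%), against 20.1% of the others. These 6 were vit-2, elt-7, asp-1, ges-1, cdr-4 and act-5, and they came from different roles. No list had a candidate in the window of 15 genes (46.9%), against 53.5% of the others. The median promoter score was 0 in the intestine genes and 0 in the others.

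**Figure D1:**
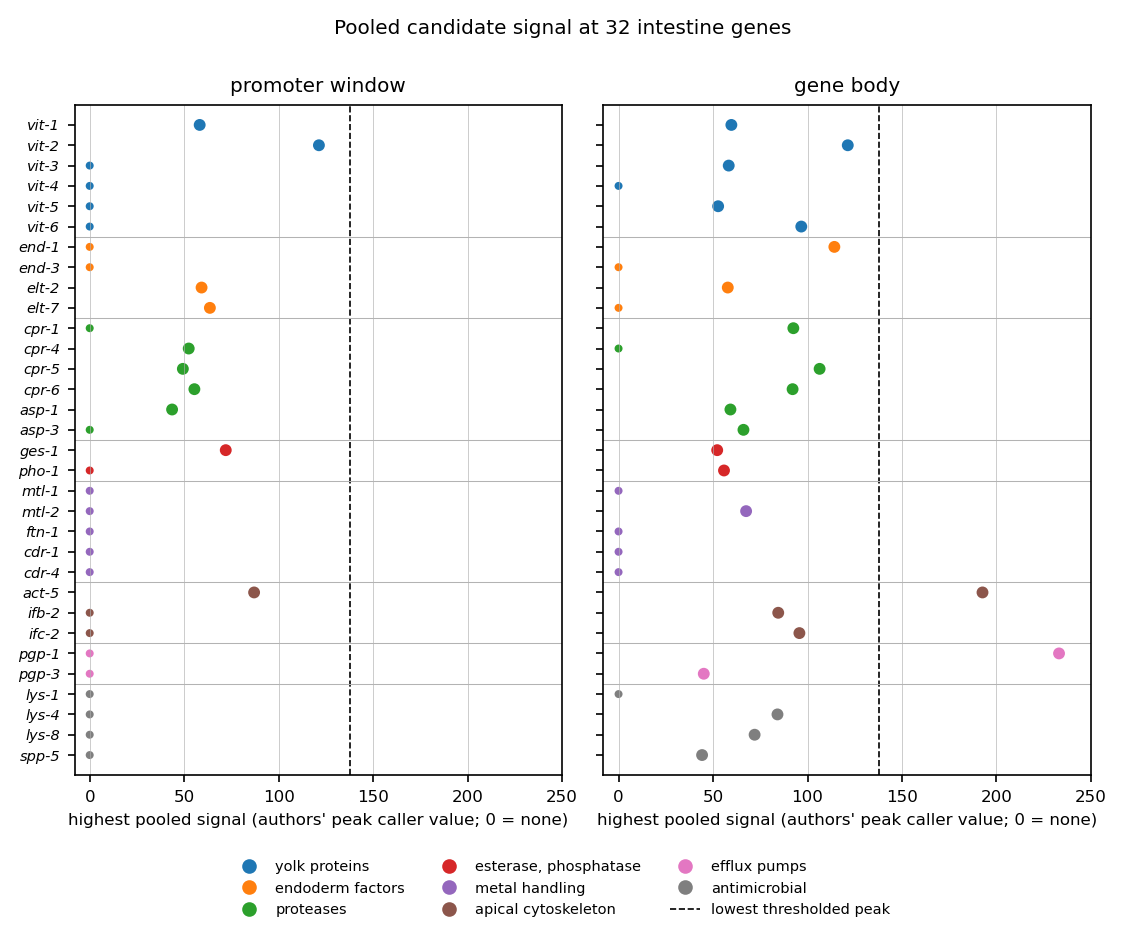
Highest pooled candidate signal of each of the 32 intestine genes in its promoter window (left) and gene body (right), coloured by role; small points at 0 are genes with no summit there and the dashed line is the lowest thresholded signal, 138.0. In the promoter panel vit-2 stands highest at 121.3, below the line, and in the body panel act-5 at 192.6 and pgp-1 at 233.1 lie above it.

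The yolk protein genes encode vitellogenins, lipoproteins that the intestine of adult hermaphrodites exports to the oocytes. Of the 6, vit-2 had the highest promoter score of all 32 genes, at 121.3 in the pool, 40.3 in replicate 1 and 80.4 in replicate 2 for the same summit. The summit lay 11 bp downstream of the 5′ end, in the first coding exon, at the same base in all 3 lists. Its rank was 1372 of 30000 in the pool, 8903 in replicate 1 and 813 in replicate 2, so the replicates gave it very unequal places. Another candidate of replicate 1, 917 bp upstream, was that list's highest in the window at 43.7. A pooled promoter score at or above that of vit-2 was reached by 3.58% of the other protein-coding genes, those outside the 32. The candidate's sequence held the reverse complement of TGATAG within the coding sequence.

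At vit-1 a pooled candidate of signal 58.2 had its summit 23 bp upstream of the 5′ end, with 42.8 in replicate 2 and no promoter candidate in replicate 1. The promoter windows of vit-3, vit-4, vit-5 and vit-6 held no candidate in any list. In their bodies vit-6 scored 96.7 in the pool, vit-3 scored 58.3 and vit-5 scored 52.7, each in a coding exon, and vit-4 had none in any list. The pooled vit-6 candidate, 5165 bp downstream of the 5′ end, was overlapped by a candidate of 29.0 in replicate 1 and by one of 76.4 in replicate 2, at rank 937, whose summit lay 144 bp away, just past the end of the gene. The highest summits inside the body of vit-6 were at other sites, with 59.0 in replicate 1 and 43.5 in replicate 2. The body score of vit-5 was 29.5 in replicate 1, at another site than the pooled candidate, and 33.5 in replicate 2, and vit-3 had 35.8 in replicate 1 and none in replicate 2. In the body of vit-1 a candidate of 59.7 in the pool and 39.4 in replicate 1 had no counterpart in replicate 2, whose body score of 42.8 came from the interval at the 5′ end. The gene bodies of vit-3, vit-4 and vit-5 were 97 to 98.3% identical in aligned bases, and 80.3%, 83.7% and 60.3% of their 32-base words occurred elsewhere in the genome. How the authors treated reads from such copies is unknown, and the 0 of vit-4 and the values of vit-3 and vit-5 are uncertain. For vit-1 and vit-2 the shares were 22.3% and 23%, and no such word of the printed vit-2 stretch occurred elsewhere.

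Among the endoderm factors, the promoter of elt-7 had a candidate at signal 63.6 in the pool, 27.5 in replicate 1 and 33.0 in replicate 2. Its summit lay 376 bp upstream of the 5′ end, in a window shared with the gene C18G1.9. ELT-7 acts beside ELT-2, the main factor of the differentiated intestine. The elt-2 promoter scored 59.2 in the pool and 38.8 in replicate 1, with no candidate in replicate 2, and the pooled summit lay 492 bp upstream. The promoter windows of end-1 and end-3, which act in the early embryo, were empty in all lists. In the body of end-1 a candidate of 114.2 in the pool, 71.1 in replicate 1 and 41.9 in replicate 2 lay in an intron, 1651 bp downstream of the 5′ end, and end-3 had no candidate anywhere. Body scores of elt-2 were 57.8 in the pool, 29.3 in replicate 1 and 32.2 in replicate 2, and elt-7 had a body candidate in replicate 1 alone, at 35.7. The elt-2 body score of replicate 1 came from another site, 1668 bp downstream of the 5′ end, against 583 bp for the pooled summit.

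The proteases are lysosomal or secreted digestive enzymes, cathepsin B-like cysteine proteases for the cpr genes and aspartic proteases for the asp genes. A pooled promoter candidate was found in 4 of the 6, at signals of 55.4 for cpr-6, 52.4 for cpr-4, 49.3 for cpr-5 and 43.6 for asp-1, all in the lower part of the list. Of these cpr-4 (51.4) and cpr-6 (34.0) had one in replicate 1 alone, and cpr-5 (27.1) in replicate 2 alone. Only asp-1 had one in each replicate, at 45.6 in replicate 1 and 39.0 in replicate 2, with summits 11 bp downstream and 556 bp upstream of its 5′ end, so these are different sites. The cpr-5 candidate was nearer to the 5′ end of its neighbour cpr-8, at 56 bp. In the gene bodies 5 of the 6 had a pooled candidate, with cpr-5 at 106.4, cpr-1 at 92.5, cpr-6 at 92.1, asp-3 at 66.1 and asp-1 at 59.2. These 5 had body candidates in both replicates, from 32.5 to 45.6 in replicate 1 and from 42.6 to 69.8 in replicate 2. The highest summits of replicates 1 and 2 lay 787 and 307 bp downstream of the 5′ end in cpr-5. In asp-3 they lay at 1633 and 464 bp, in asp-1 at 11 and 631 bp and in cpr-6 at 669 and 473 bp. In cpr-1 they lay at 709 and 722 bp. The scores of the lists were thus not always from 1 site. The body of cpr-4 had a candidate in replicate 1 alone, at 40.5. The pooled body summit of cpr-5 also lay in the promoter window of cpr-8. The 4 of 6 promoter windows and 5 of 6 bodies stood beside 32.7% and 49.2% of the other genes, counts too small to read as a difference.

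The gut esterase gene ges-1, a standard marker of the intestinal lineage, had a promoter candidate at 72.0 in the pool, 24.7 in replicate 1 and 50.5 in replicate 2. It lay 518 bp upstream of the 5′ end, with the replicate 1 summit at the same base and the replicate 2 summit 67 bp away. The replicate 1 value sat at rank 29500 of 30000, at the bottom of that list. In the body ges-1 had an intronic candidate at 52.2 in the pool, with a candidate in replicate 1 and none in replicate 2. The acid phosphatase gene pho-1 had a promoter candidate in replicate 2 alone, at 33.5, and a body candidate at 55.8 in the pool and 33.0 in replicate 1.

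No metal-handling gene had a pooled candidate in its promoter window. The genes are mtl-1 and mtl-2 (metallothioneins), ftn-1 (a ferritin), and cdr-1 and cdr-4 (cadmium-responsive genes). Single replicates had one at mtl-1 (37.8 in replicate 1) and mtl-2 (30.1 in replicate 2). These summits lay 160 and 162 bp downstream of the 5′ end, and each counts in the body as well. The window of cdr-4 had one in each replicate, at 30.6 in replicate 1 and 29.3 in replicate 2, 722 and 389 bp upstream. In the bodies mtl-2 alone had a pooled candidate, at 67.5, with 35.5 in replicate 1 and 30.1 in replicate 2. Its pooled summit also lay in the promoter windows of srh-308 and T08G5.1. Replicate 1 alone had body candidates at mtl-1, cdr-1 and cdr-4, from 28.1 to 37.8, and ftn-1 had none in any list. Pooled candidates were thus present in 0 of 5 promoter windows and 1 of 5 bodies, beside 32.7% and 49.2% of the other genes, counts too small to read as a difference.

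The 3 apical cytoskeletal genes encode ACT-5, the actin of the microvilli, and IFB-2 and IFC-2, intermediate filament proteins of the sheath beneath them. The promoter of act-5 had a candidate at 87 in the pool, 51.8 in replicate 1 and 53.5 in replicate 2, the second highest pooled promoter score of the 32. It lay 266 bp upstream of the 5′ end at rank 4454, its replicate 1 summit was 132 bp away, and its sequence held a TGATAA on each strand. The body of act-5 held 1 of the 2 thresholded peaks found in intestine gene bodies. The intermediate filament genes had no pooled promoter candidate, with ifc-2 at 30.5 in replicate 2 alone. In their bodies ifb-2 had 84.5 in the pool, 42.6 in replicate 1 and 33.9 in replicate 2. The body of ifc-2 had 95.7 in the pool and 80.1 in replicate 2 at one site, with no overlapping candidate in replicate 1. The replicate 1 score of 42.8 came from a site 12203 bp downstream of the 5′ end, against 7884 bp for the pooled summit.

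The P-glycoprotein genes pgp-1 and pgp-3 encode membrane pumps that export toxins. Their promoter windows were empty in all lists, and pgp-3 had body scores of 45.1 in the pool, 36.5 in replicate 1 and 36.8 in replicate 2. The pgp-3 score of replicate 1 came from another site, 1291 bp downstream of the 5′ end, against 3366 bp for the pooled summit. Of the antimicrobial genes lys-1, lys-4 and lys-8 encode lysozymes and spp-5 a saposin-like, pore-forming protein. None had a pooled promoter candidate, and replicate 1 alone had one at lys-1 (30.9) and spp-5 (29.6). Those summits lay in coding exons, 132 and 117 bp downstream of the 5′ end, and each counts in the body as well. Pooled body scores were 84.1 for lys-4, 72.0 for lys-8 and 44.2 for spp-5, each with candidates in both replicates. These ran from 29.6 to 55.0 in replicate 1 and from 24.9 to 35.2 in replicate 2, while lys-1 had a body candidate in replicate 1 alone, at 30.9. In lys-8 the highest summit lay 1016 bp downstream of the 5′ end in replicate 1 and 507 bp in replicate 2. The pooled lys-4 summit was nearer to the 5′ end of dsl-5, at 949 bp, and lay in its promoter window.

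**Figure D2:**
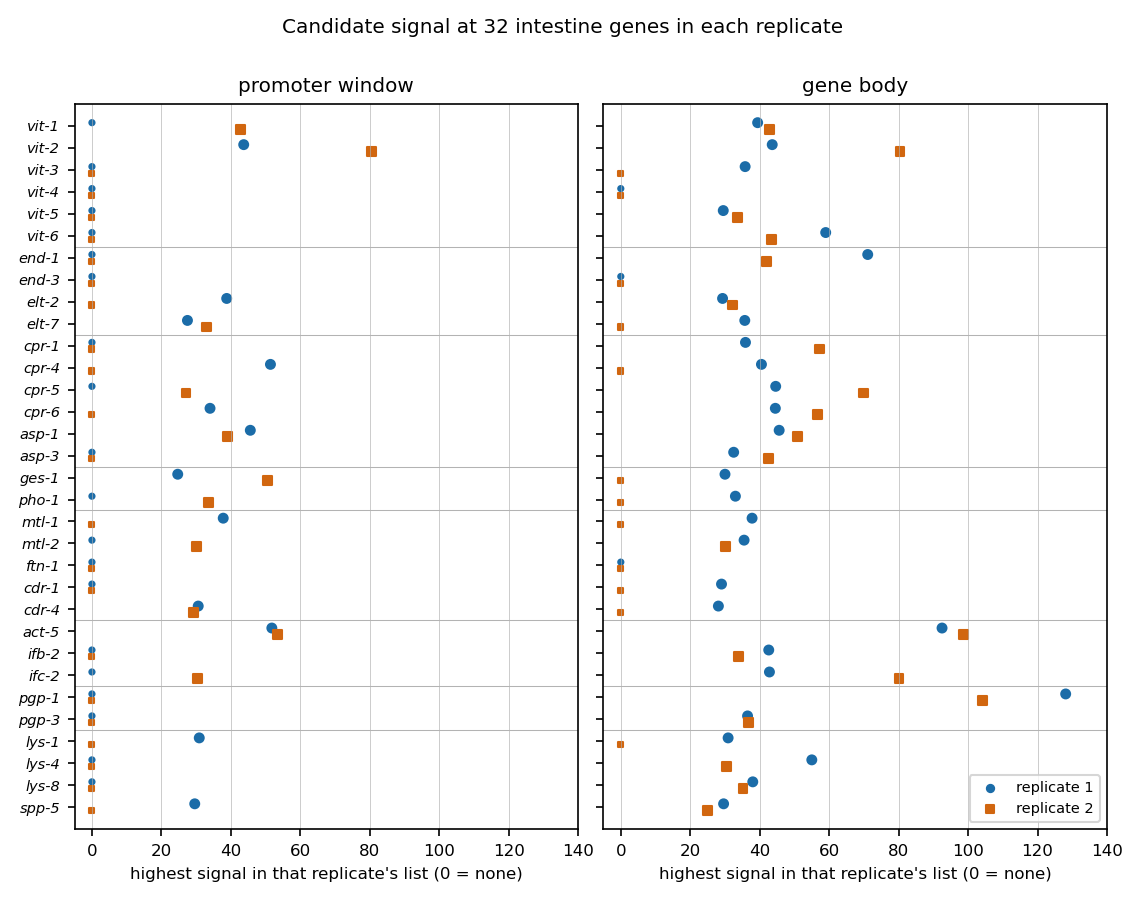
Highest signal of each intestine gene in the list of replicate 1 (circles) and replicate 2 (squares), in the promoter window (left) and gene body (right); a small symbol at 0 is a gene with no summit in that list. Candidates in the promoter of both replicates are seen at 6 genes, and in the body at 20 genes, with act-5 and pgp-1 the highest body values of both replicates.

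The promoter candidates of the intestine genes had values near the medians of the pooled list. Of the 10 highest pooled candidates, 1 per gene, 6 were overlapped by a candidate of both replicates, 2 by replicate 1 alone and 2 by replicate 2 alone. This was not counted for the other genes. Overlap takes in cpr-6, whose replicate 2 interval had its summit 291 bp away and outside the window, so these are not the 6 genes named above. Their −log10 q, the authors' adjusted significance of an interval, had a median of 0.186, against 0.192 over all 30000 pooled candidates, and their signal a median of 58.7 against 59.9. The −log10 q of vit-2, 1.21, was the only one of at least 1. The thresholded peaks had −log10 q from 1.69 to 3.1.

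Thresholded peaks lay in the body of 2 intestine genes, act-5 and pgp-1 (6.25%), against 1.69% of the other genes. The act-5 peak had a signal of 192.6 in the pool, at rank 424, with 92.5 in replicate 1 and 98.6 in replicate 2. The replicate summits lay 3 and 4 bp from the pooled one, 930 bp downstream of the 5′ end in the second coding exon, and both were within the 945 highest of their own list. At pgp-1 the peak had 233.1 in the pool, at rank 254, with 128.1 in replicate 1 and 104.1 in replicate 2, and summits within 6 bp. It lay in an intron, 4367 bp from the 5′ end. Both replicates thus placed these peaks at the same site and high in their lists. Among the 945 highest candidates of replicate 2 alone ifc-2 and vit-2 joined them (4 of 32), against 1.75% of the others, while replicate 1 alone gave the same 2.

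The pgp-1 summit fell inside another gene. It lay in K08E7.t1, a tRNA-Lys gene of 73 bp on the opposite strand (chrIV:12594740-12594812), and in the overlapping noncoding RNA gene K08E7.12. Of 612 tRNA genes in the annotation 198 (32.4%) had a thresholded peak within 200 bp. The exact sequence of K08E7.t1 was held by 25 tRNA genes, of which 12 (48%) had one, and both counts include K08E7.t1 itself. The word GGTTCGA, a core of the internal promoter of tRNA genes, was found at position 52 of K08E7.t1 and in 395 of the 612 (64.5%). Of the 32-base words of the printed stretch 29.9% occurred elsewhere in the genome, so reads there may be shared with the copies. Without peaks within 200 bp of a small RNA gene, a filter added after the values were seen, act-5 alone was left (1 of 32), against 1.08% of the others.

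No small RNA gene lay within 200 bp of the act-5 peak, and a comparison with the other actin genes was added after its value was seen. The printed stretch aligned to act-1, act-2, act-3 and act-4 with 82.7% to 85.2% identity, and none of its 32-base words occurred elsewhere. The nearest pooled summit lay 161 bp from the matching position in act-4, at a signal of 43.5, and 452 to 1175 bp away in the other 3 genes. The thresholded peak of act-4, the only one in a muscle gene body, had a signal of 155.1 and lay 2161 bp from its matching position. Around the matching positions, 100% of 32-base words in act-1, 64.7% in act-2, 100% in act-3 and 5.47% in act-4 occurred elsewhere in the genome, so reads there may be shared between genes. The matching position was itself set by the act-5 peak, and no difference between the actin genes is read from it.

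**Figure D3:**
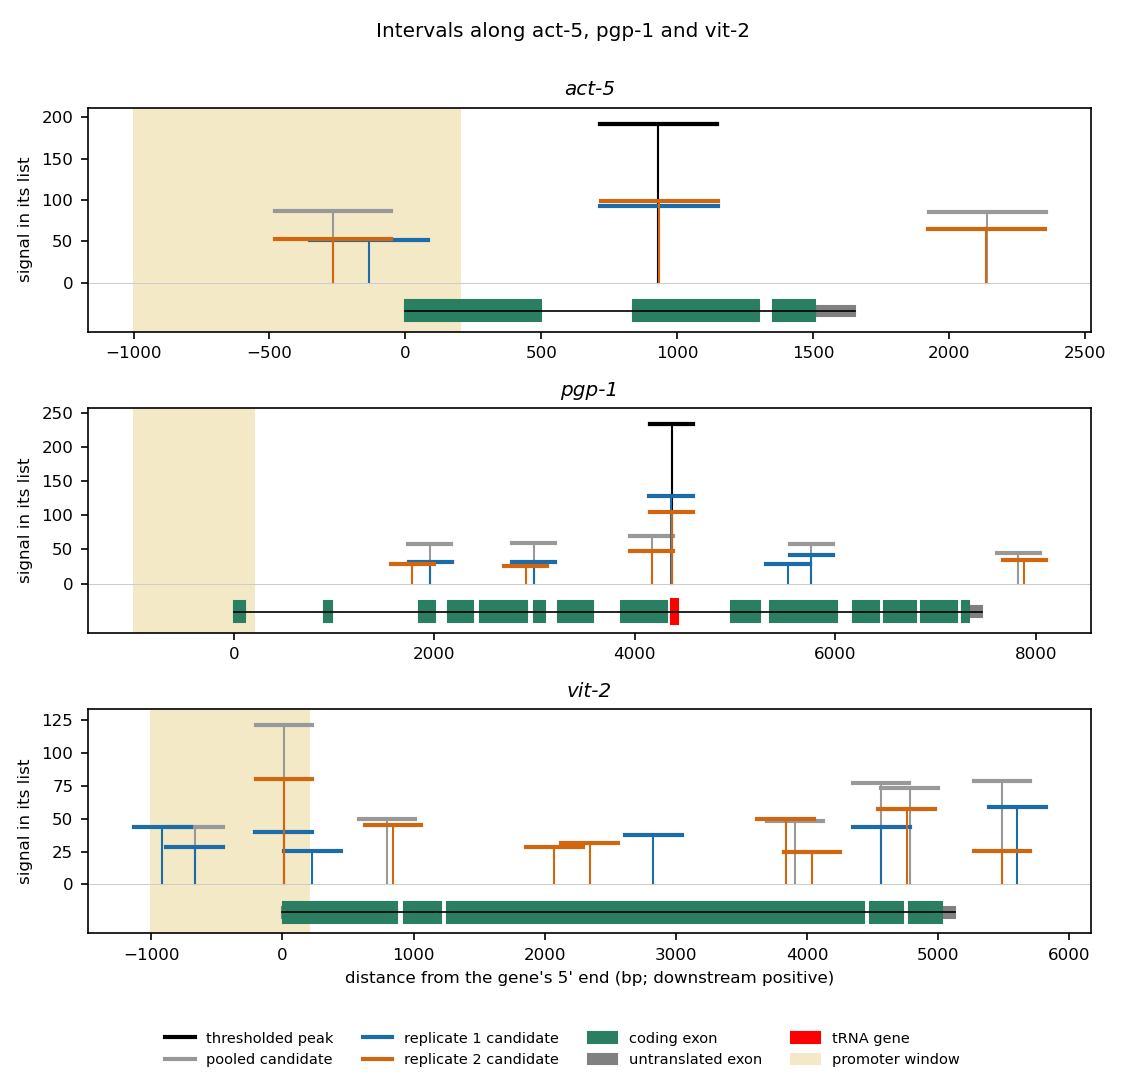
Intervals along act-5, pgp-1 and vit-2 by distance from the 5′ end in bp; horizontal bars are intervals at the height of the signal in their own list, vertical lines mark summits, and boxes below 0 are exons and the tRNA gene. The thresholded peak of act-5 lies in its second coding exon, that of pgp-1 over the tRNA gene in an intron, and the highest vit-2 candidate at its 5′ end.

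Candidates were more frequent in the bodies of intestine genes than in those of other genes, by counts that were not tested. A pooled candidate lay in the body of 23 of 32 (71.9%), against 49.2% of the others. Replicate 1 gave 29 (90.6%) against 50.3%, replicate 2 gave 20 (62.5%) against 49.9%, and both replicates together gave 20 (62.5%) against 37.4%. Replicate 1 thus held 9 genes that replicate 2 did not (28.1%, others 12.9%). Replicate 2 held none that replicate 1 did not (others 12.5%). No candidate of any list, in window or body, was found at ftn-1, end-3 and vit-4 (9.38%), against 25.5% of the others. Median gene length was 1792.5 bp in the intestine genes and 2027 bp in the others, and its part in these counts was not tested. Summits per kb of body were 0.505 against 0.337 in the pool, 0.631 against 0.336 in replicate 1 and 0.536 against 0.333 in replicate 2, while pooled summits per kb of promoter window were 0.312 against 0.329.

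The make-up of the gene bodies and the chromosomes differed as well, and their part in these counts was not tested. Coding exons took up 65.3% of body length in intestine genes and 38.3% in the others, with a median GC content of the body of 39.3% and 36.4%. Per kb of coding exon, pooled summits numbered 0.548 in intestine genes and 0.44 in the others, and per kb of intron 0.497 and 0.262. By chromosome, 14 of the 32 genes lay on V and 11 on X. The pooled share on X was 10 of 11 (90.9%) against 50.9% of the others on X, and on V it was 6 of 14 (42.9%) against 40.7% of the others on V. The 11 on X include vit-1 to vit-5, and the values of vit-3, vit-4 and vit-5 are uncertain because of their shared sequence. On X, vit-1 to vit-5, pgp-3 and ifc-2 were 4939 to 12749 bp long. The X genes elt-2, cpr-6, asp-3 and spp-5 were 418 to 2202 bp long, and the part of length was not tested. Replicate 1 gave 12 of 14 on V (85.7%) against 42.5%, and replicate 2 gave 5 of 14 (35.7%) against 41.9%, so on V the intestine genes stood above the others in replicate 1 and below them in replicate 2. In 7 of the 23 genes with a pooled body candidate, the highest one lay nearer to the 5′ end of another protein-coding gene. This was not counted for the other genes. The highest body candidate had a −log10 q of at least 0.5 in 9 of the 23 genes. With candidates of at least that value only, a limit added after the values were seen, the counts were 9 of 32 (28.1%) against 9.19%.

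**Figure D4:**
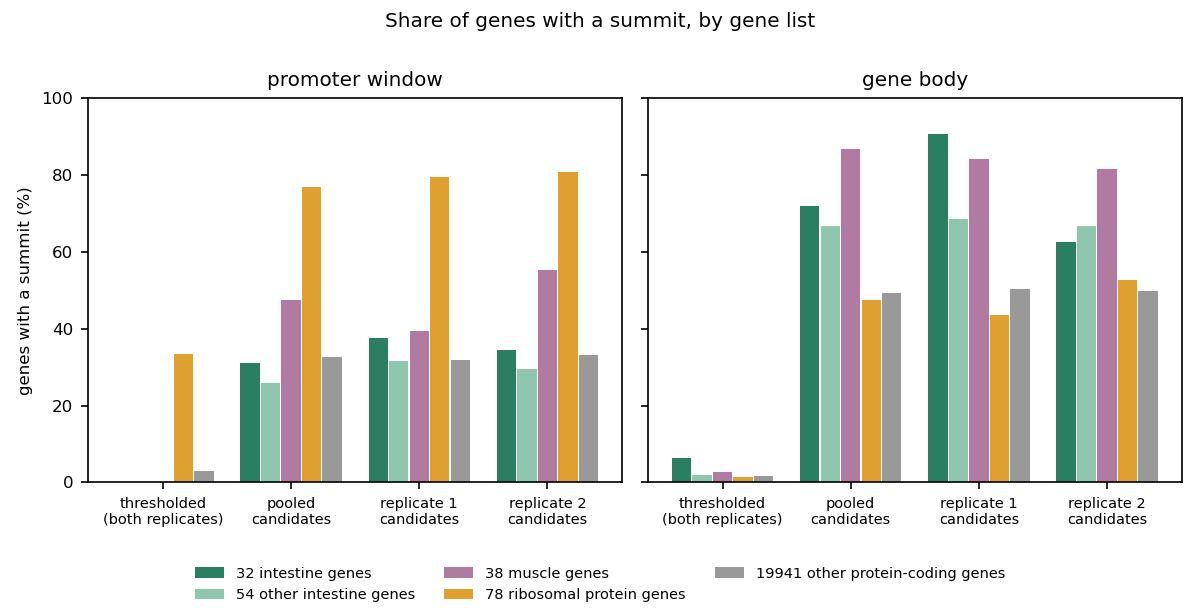
Percent of genes with a summit in the promoter window (left) and gene body (right), for each deposited list and for the intestine genes, other intestine genes, muscle genes, ribosomal protein genes and all other protein-coding genes. Promoter bars of the intestine genes stay near those of all other genes (31.2% and 32.7% in the pool), while their body bars are higher (71.9% and 49.2%), as are those of muscle genes.

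Other gene lists put these shares in context. Of 54 further intestine genes none had a thresholded promoter peak, 14 (25.9%) had a pooled promoter candidate and 36 (66.7%) a pooled body candidate. Their highest promoter scores were 110.3 at the aspartic protease gene asp-2, 109.5 at spp-1, a saposin-like gene, and 82.5 at asp-4. The spp-1 summit lay 660 bp upstream, in a coding exon of umps-1. The asp-2 and asp-4 summits lay in their own coding exons, 137 and 37 bp downstream of the 5′ end. Of 38 muscle genes none had a thresholded promoter peak, and pooled candidates were present in 18 promoters (47.4%) and 33 bodies (86.8%). The 78 ribosomal protein genes had thresholded peaks in 26 promoters (33.3%), led by rpl-3 at 1219.7, and pooled candidates in 60 promoters (76.9%) and 37 bodies (47.4%). A body share above that of all other genes was thus also seen in the further intestine genes and in muscle genes. Pooled summits per kb of body were 0.429 in the further intestine genes and 0.398 in the muscle genes, whose median length was 5009.5 bp. The ribosomal protein genes, of median length 753.5 bp, had 0.71 per kb, above the 0.505 of the 32 intestine genes.

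The promoters of intestine genes were rich in the words of their own GATA factors. One of these GATA words, searched on both strands and counted also where matches overlap, occurred in 32 of 32 windows (100%) and in 91.1% of the others, with a median of 4.5 matches per window against 2. In the 250 bp upstream of the 5′ end, 26 of 32 (81.2%) had a match against 45%, and TGATAA alone was present in 23 (71.9%) against 26.7%. The TGATAA of the elt-2 stretch lay within that replicate 1 candidate, which had a signal of 26.2 at rank 26561. The 8-base words GAGACGCA and GCGCCAGC, chosen with earlier results of these data known, were searched likewise. GAGACGCA occurred in the windows of elt-7 and cpr-4 (6.25%) and of 8.06% of the others, and GCGCCAGC in none of the 32 and in 1.55% of the others. Neither word lay in any of the printed stretches. Promoter GC content had a median of 34.6% in the intestine genes and 35% in the others.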

How the data were processed

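SPR-3::EGFP ChIP-seq was done on 2 biological replicates of whole L4 worms. The authors deposited narrowPeak lists on assembly ce11, per the labels. The deposited signal is the peak caller's value of an interval for ChIP against control, and the deposited −log10 q-value its adjusted significance. An aligner, a peak caller and an IDR cutoff were not given in the sources used here. The thresholded list was made from both replicates, with 1 control file for both, per the notes deposited with the lists. Nothing says how reads with several matches were treated.

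Summits were placed at interval start plus the deposited offset. One interval of replicate 2 (1 of 30000) had its summit outside it. Genes came from Ensembl release 115, WBcel235, and its chromosomes were compared with those of the lists by name and length. The gene list was matched by symbol, 32 of 32. Of 55 further intestine genes 54 matched; cdr-5 did not. Members and lists were chosen with earlier results of these data known. All 32 members are named, and of the further intestine genes the 3 with the highest promoter score. The sequences printed for gene bodies and the actin and tRNA comparisons were chosen after the values were seen. With 1 group and no condition to compare, no test was made, and the counts describe genes, not replicate error. The scoring was checked on simulated summits. Python 3.11.15, pandas 2.3.3, NumPy 2.4.6, Biopython 1.88 (alignments) and matplotlib 3.10.9 were used. Alternatives were other windows, overlap in place of summits, stricter lists, nearest genes only and each replicate left out.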

Additional observations from a re-analysis of the deposited data

How the results depend on the processing

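Thresholded promoter peaks numbered 0 of 32 under each other window, by overlap and in the stricter list. With a replicate left out (the 945 highest candidates of the other), the count was 0 to 1, the 1 being vit-2 without replicate 1. Thresholded body peaks numbered 2 to 4 in that way, the added genes being ifc-2 and vit-2, and 1 without peaks near small RNA genes, a choice made after seeing the data.

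Pooled promoter candidates numbered 8 with a window from 500 bp upstream (25%, others 23.2%), 14 with a longer window (43.8%, others 47.2%), 14 by overlap (43.8%, others 40.3%), 9 by the nearest-gene rule (28.1%, others 27.2%) and 10 with all transcript starts (31.2%, others 36.1%). With the better-ranked 50% of each list, 4 of 32 had one in the pool (12.5%, others 19.2%), 7 in replicate 1 (others 18.6%), 5 in replicate 2 (others 19.7%) and 3 in both replicates (others 10.5%). A window from 500 bp upstream also gave 3 in both replicates (others 12.6%). The stricter pooled list lost vit-1, elt-2, cpr-4, cpr-5, cpr-6 and asp-1. The median promoter score was 0 under each of these settings.

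Pooled body candidates numbered 23 without the first 200 bp of each body (71.9%, others 45.7%). They numbered 20 to 29 with a replicate left out and 14 in the stricter list (others 31.4%). With −log10 q of at least 0.5, a limit chosen after seeing the data, they numbered 9 (others 9.19%). In each of these the share in intestine genes stayed above that of the others. The causes were not tested. Leaving out a replicate was not run for counts that belong to 1 replicate or need both. No paired analysis was possible because there is 1 group. Without read depth, a score of 0 cannot be told apart from a site too weak to enter the list.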

Other observations

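Of the further intestine genes, haf-9, a lysosomal-type ABC transporter of gut granules, had a thresholded peak in its body and was chosen after its values were seen. The signal was 319.8 in the pool, 153.0 in replicate 1 and 163.8 in replicate 2, and the summit lay in an intron, inside the noncoding RNA gene ZK484.10 and 34 bp outside the snoRNA gene ZK484.9. Like that of pgp-1, it thus lay at a small noncoding RNA gene within an intron.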
